A study of Mus musculus with 4 samples.

Results

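The autophagy machinery was followed through 10 genes, named for their roles, with earlier results of these data known: Ulk1, Becn1, Rubcn, Atg5, Atg7, Map1lc3b, Gabarap, Sqstm1, Optn and Tfeb. All 10 were found among the 49993 genes with a count, and all 10 passed the filter on low counts that left 21439 genes for testing. The libraries were bulk RNA-seq of CD11b+ microglia, the brain's resident macrophages, sorted with magnetic beads from the brains of mice aged 10 months. Every mouse carried APP/PS1, transgenes that cause amyloid deposition, so that no group without amyloid was compared. In the AD group (genotype APP/PS1+ asrij+/+, n = 2 libraries) asrij, the mouse gene Ociad1, was intact, and in the AD/KO group (APP/PS1+ asrij-/-, n = 2 libraries) it was deleted constitutively and so not in microglia alone. The labels say neither which promoter drives the transgenes nor whether a library is 1 mouse or a pool, and p-values therefore measure only the spread between these libraries.

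Autophagy delivers cytoplasm, damaged organelles and protein aggregates to the lysosome inside a double membrane. The ULK1 kinase complex starts the process, a class III PI3-kinase complex built around Beclin 1 marks the forming membrane, and an E1- and E2-like conjugation system that includes ATG7 and ATG5 attaches ATG8 proteins (the LC3 and GABARAP families) to lipid. Cargo receptors such as p62 and optineurin tie ubiquitin-tagged cargo to the ATG8 proteins, and TFEB switches on genes of autophagy and lysosomes. In microglia the same conjugation system also serves the uptake of material from outside the cell.

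The libraries held from 13102622 to 19810076 counts, and the 10 genes together took between 0.0659% and 0.0702% of them. Ociad1 was lower in both AD/KO libraries (38.9 and 32.1 CPM, CPM being reads scaled to a common library size) than in the AD libraries (50.2 and 63.4 CPM) but was not lost, so AD and AD/KO stand here for the libraries as labelled. The homeostatic microglia markers (21 genes, none at 0 in any library) summed to 24686 and 17369 CPM in AD and to 25729 and 7638 CPM in AD/KO. AD/KO replicate 2 was the lowest library in these markers. It was also the highest in neuron markers (3110 CPM against 391 and 1304 CPM in AD and 996 CPM in AD/KO replicate 1; 3 of 12 genes higher in both AD/KO libraries) and in astrocyte markers (12986 CPM against 2096, 4897 and 5141 CPM; 9 of 10 genes higher in both AD/KO libraries). Oligodendrocyte markers followed (1639 and 2630 CPM in AD, 3908 and 8557 CPM in AD/KO, with 4 of 8 genes higher in both). Markers of disease-associated microglia were lower in both AD/KO libraries for 14 of 15 genes (8234 and 8125 CPM in AD, 6229 and 3720 CPM in AD/KO). No marker of these lists was at 0 in a library. Neutrophil markers summed to 5077 CPM in AD replicate 2 against 395 to 608 CPM in the other 3 libraries, and the same library had 1391 Xist reads against 3 to 15. AD replicate 2 and AD/KO replicate 1 were close in their average neuron and astrocyte marker level (6.72 and 6.66 on the log2 CPM scale), with AD replicate 1 at 5.31 and AD/KO replicate 2 at 8.08. AD replicate 2 and AD/KO replicate 1 were not close in homeostatic, neutrophil and oligodendrocyte markers or in Xist. In such bulk samples fewer cells of a type and less RNA per cell cannot be told apart.

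None of the 10 genes passed the test between the groups. By the quasi-likelihood F-test of edgeR, adjusted over all genes by the Benjamini-Hochberg method, 0 of 10 had an adjusted p under 0.05, as did 0 of 21439 genes (0%). The smallest adjusted p among the 10 was 0.680, also the smallest among all genes. Before adjustment, p was under 0.05 for 0 of 10, against 1072 of all genes tested (5%). DESeq2 also called 0 of the 10, and 90 genes in all. The log2 fold changes of the 10 genes ran from −0.49 (Atg5) to 0.51 (Ulk1) with a median of 0.14, beside a median of −0.05 over all genes tested. Both AD/KO libraries lay above both AD libraries in 4 of the 10 (Ulk1, Rubcn, Map1lc3b and Sqstm1), where 20.3% of all genes did so. Both lay below in 2 (Atg5 and Atg7), against 21.7% of all genes. In the other 4 genes the groups overlapped. With the average neuron and astrocyte marker level as a covariate, a fit that leaves 1 residual degree of freedom, the log2 fold changes of those 6 genes were 0.17 (Ulk1), 0.28 (Rubcn), 0.05 (Map1lc3b), 0.13 (Sqstm1), −0.29 (Atg5) and −0.34 (Atg7).

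**Figure D1:**
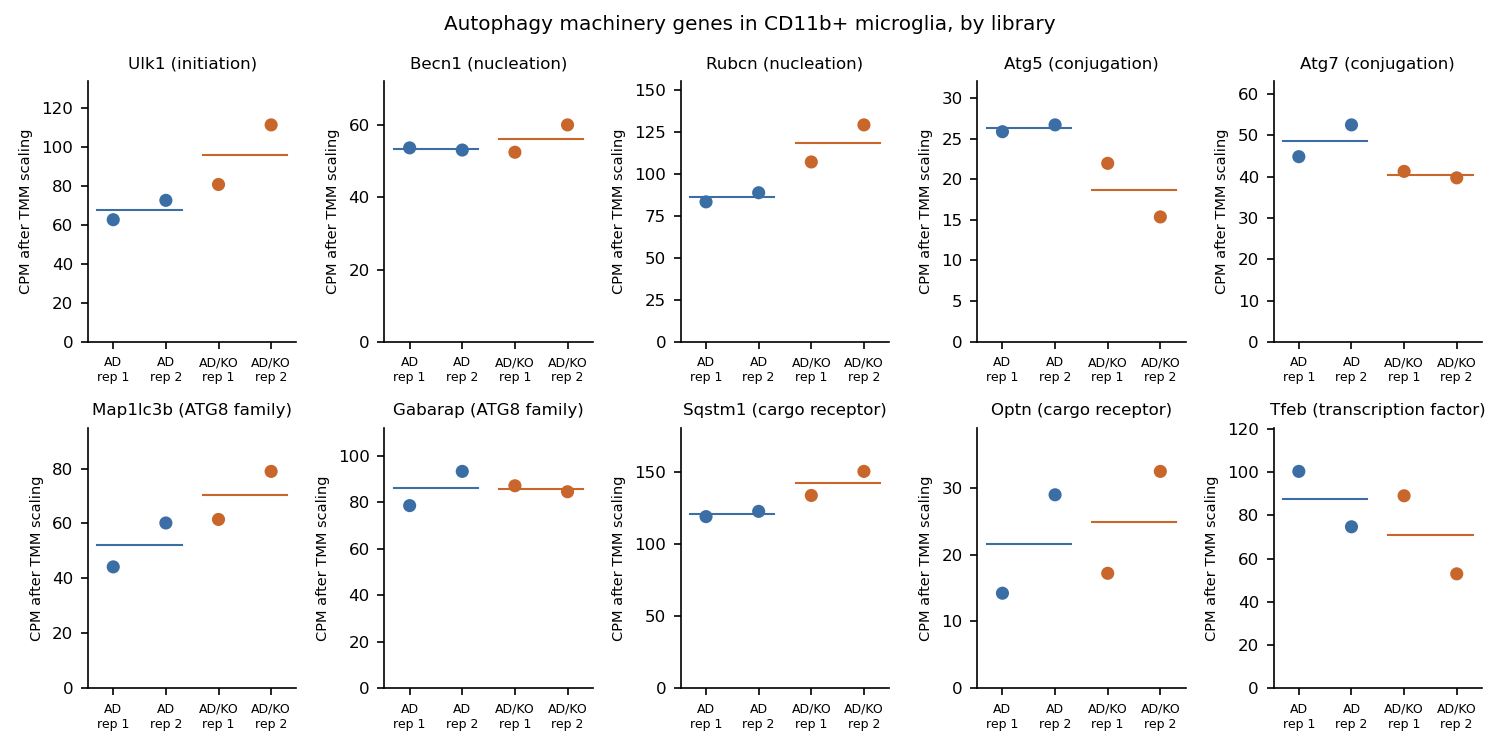
Level of each of the 10 autophagy genes in each library, in CPM after TMM scaling; each panel starts at 0, points are single libraries (AD blue, AD/KO orange) and lines are group means (n = 2). Points of the groups do not overlap for Ulk1, Rubcn, Map1lc3b and Sqstm1 (AD/KO above) or for Atg5 and Atg7 (AD/KO below).

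Initiation was represented by Ulk1 (gene ID 22241, chromosome 5, 110784489 to 110810120 on GRCm38.p6), the kinase that starts autophagosome formation when nutrients are short. Its level was 62.7 and 72.7 CPM in the AD libraries and 80.8 and 111 CPM in the AD/KO libraries, or 67.7 ± 7.03 against 96.1 ± 21.6 CPM (SD, n = 2 each). Ulk1 was higher in each AD/KO library than in either AD library, with most of the distance in AD/KO replicate 2. The log2 fold change was 0.51 (SE 0.31, 95% interval −0.30 to 1.31), the largest of the 10 genes, and did not pass the threshold (adjusted p = 0.680). Without AD/KO replicate 2 it was 0.27, and without AD/KO replicate 1 it was 0.77. In AD/KO replicate 1, Ulk1 stood 0.15 above its level in AD replicate 2 on the log2 scale, a comparison of single libraries. These libraries were close in their average neuron and astrocyte level but not in homeostatic or neutrophil markers.

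At the nucleation step, Becn1 (gene ID 56208, chromosome 11, 101288258 to 101302286) encodes Beclin 1, the scaffold of the PI3-kinase complex. It was the steadiest of the 10 genes, at 53.7 and 53.1 CPM in AD and 52.5 and 60.1 CPM in AD/KO. The groups overlapped, and the log2 fold change of 0.08 had a 95% interval from −0.61 to 0.76. On the opposite strand, Cntd1 covers 43.9% of the exonic bases of Becn1. Whether strand was used in counting is not stated. Cntd1 itself held 18 to 33 reads in a library, against 740 to 1107 for Becn1. These counts do not show whether reads in the shared bases were left out. Rubcn (gene ID 100502698, chromosome 16, 32821702 to 32877729) encodes Rubicon, which binds the PI3-kinase complex, holds back autophagosome maturation and is needed for LC3-associated phagocytosis. It was at 83.3 and 88.8 CPM in AD and at 107 and 129 CPM in AD/KO. The AD libraries lay close together and below both AD/KO libraries, a log2 fold change of 0.46 (SE 0.29, 95% interval −0.28 to 1.198, adjusted p = 0.680). Rubcn was also 0.27 higher on the log2 scale in AD/KO replicate 1 than in AD replicate 2. The ratio of Rubcn to Becn1 reads, which does not depend on library scaling, was 1.55 and 1.67 in AD and 2.04 and 2.15 in AD/KO. Its groups did not overlap, but the pair was chosen after values were seen. With Becn1 steady, the ratio mostly repeats the order of Rubcn and is not separate support for it.

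Of the conjugation genes, Atg5 (gene ID 11793, chromosome 10, 44268322 to 44364299), whose product is joined to ATG12 to form the ligase for ATG8 proteins, was at 25.8 and 26.7 CPM in AD and 21.9 and 15.4 CPM in AD/KO. Its AD libraries were nearly equal, both AD/KO libraries were lower, and the log2 fold change was −0.49 (SE 0.33, 95% interval −1.34 to 0.35, adjusted p = 0.680). Without AD/KO replicate 2 it was −0.25, and without AD/KO replicate 1 it was −0.72. Atg7 (gene ID 74244, chromosome 6, 114643127 to 114860604), the E1-like enzyme that activates both ATG12 and the ATG8 proteins, was at 44.9 and 52.6 CPM in AD and at 41.3 and 39.7 CPM in AD/KO. Here the distance came from AD replicate 2. The log2 fold change of −0.27 (SE 0.27, 95% interval −0.96 to 0.43, adjusted p = 0.728) was −0.08 without that library and −0.39 without AD replicate 1. With the libraries scaled to the homeostatic microglia markers in place of TMM, which raised the median of all genes to 0.70, Atg5 stood at 0.15 and Atg7 at 0.49, both below that median.

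Because TFEB and its relatives bind E-box elements, the promoter windows of the genes were searched for the E-box CACGTG (a palindrome, so that both strands are covered). The windows are those of RefSeq on GRCm38.p6, running from 250 bases before to 50 bases from the start site on. Of the 10 genes 9 had a window, with 12 windows in all, and Becn1 had none. The E-box was found in 3 of the 9 genes (33.3%), namely Rubcn, Atg5 and Atg7. Among all genes with a window of 300 bases it was found in 8.09%, and among the tested ones in 10.3%. Of the autophagy genes described below, 11 of the 69 with a window held it (15.9%). With T in front (TCACGTG, on either strand), a form contained in the first, it was found in Rubcn and Atg7. Its share was 4.29% of all genes, 5.91% of the tested ones and 13% of the autophagy genes. The E-box lay 88 bases before a start site in Rubcn, 14 bases before it in Atg5 and 132 bases before it in Atg7. These start sites are not all at the 5′ end of the gene as RefSeq bounds it. That of Atg5 lies 17 bases inside it, but that of Rubcn lies 9363 bases inside and that of Atg7 lies 27969 bases inside. Rubcn has another start site at its 5′ end, whose window held no match, and for Atg7 no window at the 5′ end was searched. The stretches below show the E-box in capitals with 40 bases on either side, 5′ to 3′ on the strand of the gene. They are shown because the genes that carry the element lay on both sides of AD: Rubcn was higher in both AD/KO libraries, and Atg5 and Atg7 were lower in both. A match is a description of the letters and not of binding.
Rubcn (minus strand, chr16:32868409-32868494): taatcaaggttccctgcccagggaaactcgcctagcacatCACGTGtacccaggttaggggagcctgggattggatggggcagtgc
Atg5 (plus strand, chr10:44268285-44268370): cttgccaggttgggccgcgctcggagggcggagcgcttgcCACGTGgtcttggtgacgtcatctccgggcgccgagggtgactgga
Atg7 (plus strand, chr6:114670924-114671009): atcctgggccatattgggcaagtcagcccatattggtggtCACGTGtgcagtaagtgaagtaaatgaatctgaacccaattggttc

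Tfeb itself (gene ID 21425, chromosome 17, 47737037 to 47792416) encodes the transcription factor that enters the nucleus when mTORC1 is inactive. It was at 100.4 and 74.7 CPM in AD and at 89.1 and 53.0 CPM in AD/KO. The groups overlapped: in each, replicate 2 was the lower library, by 0.43 in AD and 0.75 in AD/KO on the log2 scale. The log2 fold change was −0.30 (SE 0.38, 95% interval −1.28 to 0.68, adjusted p = 0.771), and it was 0.04 without AD/KO replicate 2, the library lowest in microglial markers. Tfeb was 0.25 higher on the log2 scale in AD/KO replicate 1 than in AD replicate 2. The part of the microglial marker level in this order was not tested.

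The ATG8 genes did not share 1 pattern. Map1lc3b (gene ID 67443, chromosome 8, 121590438 to 121598760), which encodes LC3B, the protein most used to mark autophagosomes, was at 44.2 and 60.2 CPM in AD and 61.5 and 79.0 CPM in AD/KO. Both AD/KO libraries lay above both AD libraries, but AD replicate 2 and AD/KO replicate 1 differed by only 0.03 on the log2 scale. The log2 fold change was 0.43 (SE 0.32, 95% interval −0.39 to 1.25, adjusted p = 0.683). It was 0.21 without AD replicate 1 and 0.73 without AD replicate 2. Gabarap (gene ID 56486, chromosome 11, 69991370 to 69994949), of the sister subfamily that acts late in autophagosome closure and fusion, was at 78.5 and 93.2 CPM in AD and at 87.1 and 84.5 CPM in AD/KO. Its groups overlapped, with a log2 fold change of −0.00 (95% interval −0.72 to 0.71). The ratio of Map1lc3b to Gabarap reads was 0.563 and 0.645 in AD and 0.706 and 0.934 in AD/KO, higher in both AD/KO libraries. This pair, too, was chosen after values were seen, and the ratio is not separate support for the order of Map1lc3b.

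The other ATG8 genes, Map1lc3a, Gabarapl1 and Gabarapl2, were all higher in both AD/KO libraries. Map1lc3a was at 13.2 and 22.7 CPM in AD and 28.8 and 42.2 CPM in AD/KO (log2 fold change 0.98, SE 0.41). Gabarapl1 was at 32.9 and 50.2 CPM in AD and 56.0 and 111 CPM in AD/KO (log2 fold change 1.01, SE 0.45). Gabarapl2 was at 20.8 and 25.6 CPM in AD and 27.9 and 37.8 CPM in AD/KO (log2 fold change 0.51, SE 0.32). None passed the threshold, with an adjusted p of 0.680 in each case (edgeR, Benjamini-Hochberg). Thus 4 of the 5 ATG8 genes lay higher in both AD/KO libraries (20.3% of all genes tested did so), with Gabarap as the exception. In all 4 the lowest library was AD replicate 1 and the highest AD/KO replicate 2, as for the average neuron and astrocyte marker level. Between these ends the order was not that of this average. AD/KO replicate 1, with an average of 6.66, stood above AD replicate 2, with 6.72. The distance on the log2 scale was 0.34 for Map1lc3a, 0.16 for Gabarapl1, 0.13 for Gabarapl2 and 0.03 for Map1lc3b. Astrocyte markers alone were in the order of the 4 genes (mean log2 CPM 6.54 and 7.72 in AD, 7.78 and 9.01 in AD/KO). Neuron markers alone were not (4.28 and 5.89 in AD, 5.72 and 7.30 in AD/KO). Map1lc3a and Gabarapl1 are known to be abundant in neurons. The part of neuron and astrocyte content in these levels was not tested. With the covariate, the log2 fold changes were 0.38 for Map1lc3a, 0.19 for Gabarapl1, 0.14 for Gabarapl2, 0.05 for Map1lc3b and −0.09 for Gabarap. Without AD/KO replicate 2 they were 0.69, 0.44, 0.28, 0.25 and 0.03. Without AD/KO replicate 1 they were 1.29, 1.48, 0.76, 0.65 and 0.03. Near-identical genes make these counts less certain: Gm6055 matches Map1lc3b at 99.7% over 378 bases and held 44 to 100 reads in a library, and Gm3724 matches Gabarapl2 at 99.4% over 349 bases and held 52 to 55. Gabarapl1 is matched by 1700101I11Rik at 100% over 379 bases, and this gene was not among those tested. Map1lc3b had 4 matches of 200 bases or more, and Gabarapl2 was also matched by Gm5829 (96.6%) and Gm6051 (98%).

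**Figure D2:**
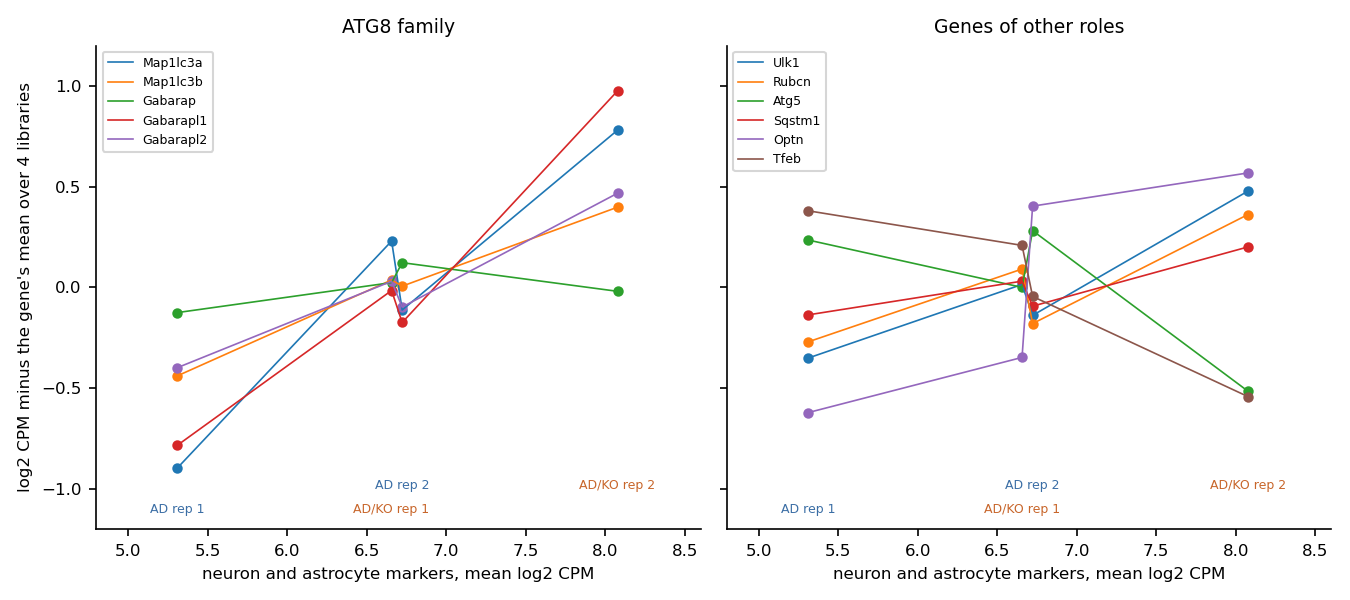
Deviation of log2 CPM from the mean of each gene over the 4 libraries, against the average neuron and astrocyte marker level (log2 CPM) in the same library; lines join the points of a gene in the order of that level. Of the 5 ATG8 genes, 4 are lowest in AD replicate 1 and highest in AD/KO replicate 2 while Gabarap stays near its mean, and Tfeb runs the opposite way.

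Among the cargo receptors, Sqstm1 (gene ID 18412, chromosome 11, 50200152 to 50210820) encodes p62, which binds ubiquitin and LC3 and is itself degraded by autophagy. It was at 119 and 123 CPM in AD and at 134 and 150.5 CPM in AD/KO. The AD libraries were nearly equal and both AD/KO libraries were higher, by a log2 fold change of 0.23 (SE 0.29, 95% interval −0.51 to 0.98, adjusted p = 0.769). It stayed between 0.16 and 0.37 with any 1 library left out. Mrnip, on the opposite strand, covers 17.3% of the exonic bases of Sqstm1 and held 87 to 122 reads in a library, against 1641 to 2773 for Sqstm1. Here too the counts do not show whether reads in the shared bases were left out. Optn (gene ID 71648, chromosome 2, 5020521 to 5064399) encodes optineurin, a receptor for ubiquitin-tagged mitochondria and bacteria that is activated by TBK1. It was at 14.2 and 29.0 CPM in AD and at 17.2 and 32.5 CPM in AD/KO. Optn varied more within the groups than between them, with replicate 2 above replicate 1 by 1.03 in AD and by 0.92 in AD/KO on the log2 scale. Its log2 fold change of 0.20 had the widest interval of the 10 genes (−1.14 to 1.54, adjusted p = 0.882) and ran from −0.32 with AD/KO replicate 2 left out to 0.86 with AD replicate 2 left out. The ratio of Sqstm1 to Optn reads was 8.37 and 4.24 in AD and 7.78 and 4.64 in AD/KO, so that it separated the replicate numbers and not the groups. Of 5 such ratios computed, those of Atg7 to Atg5 and of Ulk1 to Tfeb also overlapped between the groups.

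**Figure D3:**
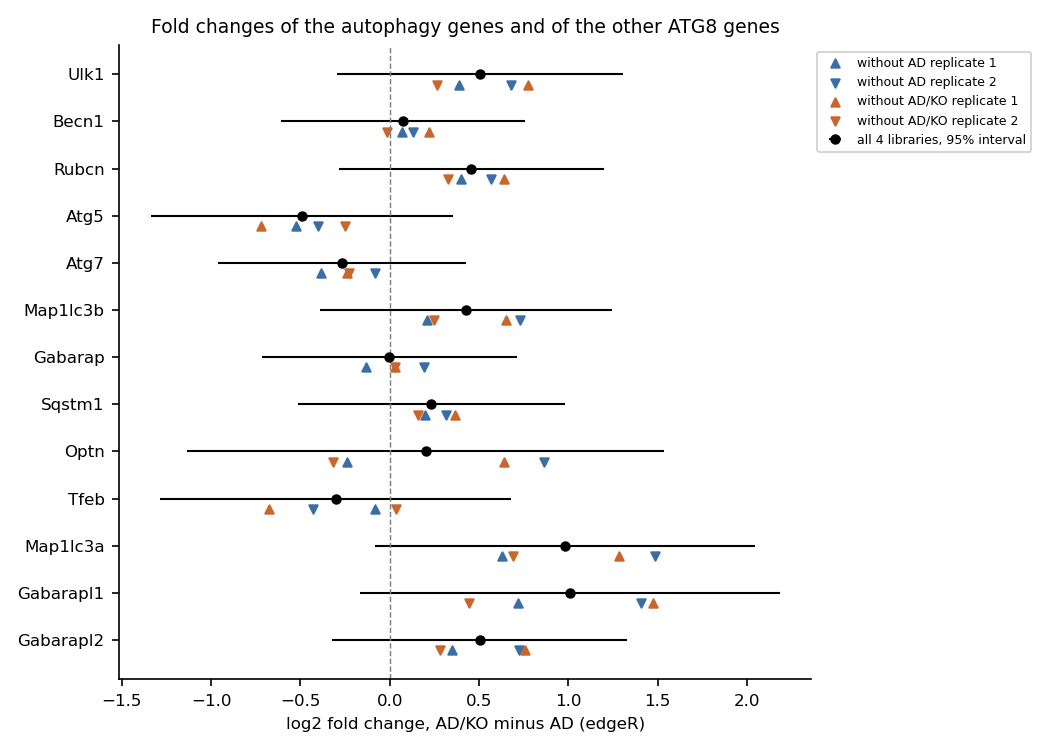
Log2 fold change (AD/KO minus AD, edgeR) of the 10 autophagy genes and of the other ATG8 genes, with the 95% interval from all 4 libraries (black) and the value with 1 library left out (triangles). Every interval includes 0, and the triangles lie on both sides of 0 for Becn1, Gabarap, Optn and Tfeb.

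Levels were compared between genes per kilobase of exon (union of GENCODE M21 exons), as mean ± SD over the 4 libraries. Gabarap (46.5 ± 3.31 CPM per kb) and Sqstm1 (39.2 ± 4.20) were the most abundant of the 10, and their ranges over the libraries overlapped. Both stood apart from the next genes, Tfeb (14.0 ± 3.61), Rubcn (13.7 ± 2.77) and Ulk1 (12.6 ± 3.24). Atg5 (9.55 ± 2.19), Map1lc3b (8.14 ± 1.89), Becn1 (7.76 ± 0.498), Atg7 (6.40 ± 0.821) and Optn (6.18 ± 2.36) followed, and from Tfeb down each gene overlapped its neighbour in this order. The order depended in part on the length used. With the longest principal transcript in place of all exons, Sqstm1 (64.6 CPM per kb) and Gabarap (63.5) remained above Tfeb (34.5) and Optn (8.88) remained last, but Map1lc3b moved from rank 7 to rank 4 (24.2).

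The wider machinery was described with a list of 82 genes in 8 role groups, all of them tested. Of the 82, edgeR called 0, and for 0 of them was p under 0.05 before adjustment, and DESeq2 called none of them. The median log2 fold change was −0.00, with 40 genes higher and 42 lower in AD/KO. Both AD/KO libraries lay above both AD libraries in 20 genes (24.4%, against 20.3% of all genes tested) and below in 18 (21.95%, against 21.7%). These shares were near those of all genes.

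The role groups differed in their medians, though no group was tested. The ATG8 family stood highest (median 0.51, 5 genes), followed by membrane supply (0.21, 10 genes) and the cargo receptors (0.16, 15 genes). Initiation (0.01, 11 genes), conjugation (−0.00, 11 genes), fusion with the lysosome (−0.01, 14 genes) and nucleation (−0.06, 9 genes) lay near 0, and the transcription factors lay lowest (−0.29, 7 genes). This order did not hold without AD/KO replicate 2, where the transcription factors stood at 0.04, membrane supply at −0.04, the cargo receptors at 0.04 and the ATG8 family at 0.28. Without AD/KO replicate 1 the same medians were −0.67, 0.38, 0.31 and 0.76. With the covariate these medians were 0.14, −0.07, 0.03 and 0.14. Of the cargo receptors, 7 of 15 were higher in both AD/KO libraries and 5 were lower in both, where 20.3% and 21.7% of all genes tested did so. Of the 5 lower ones, Retreg1, a receptor for the endoplasmic reticulum, was at 164 and 131 CPM in AD and at 124 and 62.8 CPM in AD/KO (log2 fold change −0.66, but −0.24 without AD/KO replicate 2, −0.11 with the covariate and −1.18 with AD/KO replicate 1 left out). Of the 7 higher ones, Calcoco1 was at 43.2 and 58.2 CPM in AD and at 65.5 and 98.7 CPM in AD/KO (0.69, but 0.38 without AD/KO replicate 2, 0.19 with the covariate and 1.01 with AD/KO replicate 1 left out). Among conjugation genes, 4 of 11 were lower in both AD/KO libraries (Atg4a, Atg5, Atg7 and Atg3) and 1 was higher (Atg4d), beside 21.7% and 20.3% of all genes. Atg4a and Atg4d both encode proteases that trim ATG8 proteins, and their log2 fold changes were −0.51 and 0.41, or −0.53 and 0.06 with the covariate.

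**Figure D4:**
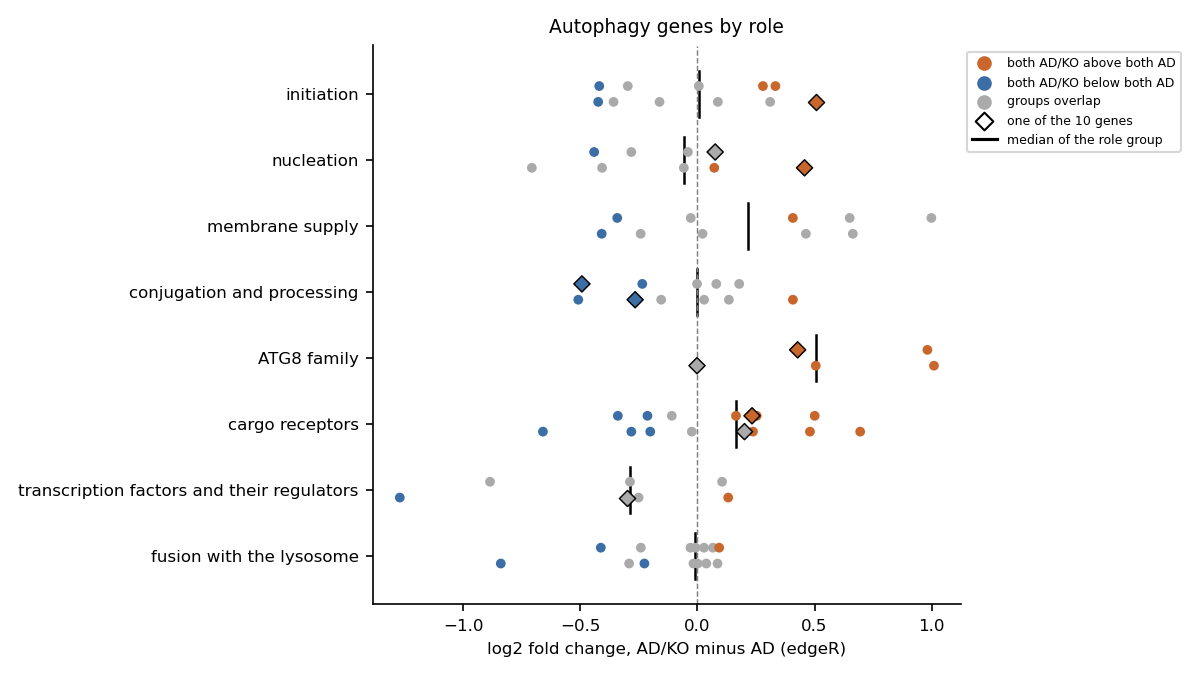
Log2 fold change (AD/KO minus AD) of 82 autophagy genes by role; the 10 genes followed here are outlined diamonds, colours mark whether the groups overlap and black lines are medians. Of the 82 genes, 20 lie higher and 18 lower in both AD/KO libraries.

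In the other groups, and leaving aside the 10 genes already described, the gene with the smallest p in each direction was as follows. In initiation, Akt1s1, an inhibitory subunit of mTORC1, was at 41.0 and 39.0 CPM in AD and at 50.9 and 49.9 CPM in AD/KO (log2 fold change 0.33). Rb1cc1, the scaffold of the ULK1 complex, was at 90.4 and 87.0 CPM and at 66.1 and 66.2 CPM (−0.42). Ulk1 and its scaffold thus lay on opposite sides of AD, each without overlap, but Rb1cc1 was picked by its p. Of the 11 initiation genes, 3 lay above both AD libraries in both AD/KO libraries, 2 lay below and 6 overlapped. Of all genes tested, 20.3% lay above and 21.7% below. In nucleation, Ambra1 stood at 0.07 and Uvrag at −0.41 (−0.17 without AD/KO replicate 2). In membrane supply, Atg2a, a lipid transfer protein, was at 75.9 and 107 CPM in AD and at 106 and 183 CPM in AD/KO (0.66, but 0.23 without AD/KO replicate 2 and 0.02 with the covariate), and Vmp1 stood at −0.41. Of the transcription factors, Foxo3 stood at 0.13. Mitf, a relative of Tfeb, was at 90.8 and 54.6 CPM in AD and at 55.1 and 23.6 CPM in AD/KO (−0.89, but −0.39 without AD/KO replicate 2 and −0.03 with the covariate). Mitf had the same order of libraries within each group as Tfeb. In fusion, Plekhm1 stood at 0.09. Lamp2, a lysosomal membrane protein needed for fusion, was at 318 and 257 CPM in AD and at 216 and 105 CPM in AD/KO (−0.84), and at −0.40 without AD/KO replicate 2 and −0.28 with the covariate. The adjusted p values of these genes were 0.680 or higher (edgeR, Benjamini-Hochberg). With the covariate, the remaining log2 fold changes were 0.38 for Akt1s1, −0.40 for Rb1cc1, 0.05 for Ambra1 and −0.01 for Uvrag. They were −0.36 for Vmp1, 0.10 for Foxo3 and 0.07 for Plekhm1. Without AD/KO replicate 1, Uvrag stood at −0.62, Atg2a at 1.06, Mitf at −1.57 and Lamp2 at −1.40.

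For each of the 10 genes, the most similar pattern was sought among the other 79 genes of the list with a mean of at least 5 CPM, as the smallest root mean square difference in log2 CPM over the 4 libraries after centring each gene. Ulk1 was nearest to Gabarapl2 (0.032), Sqstm1 to Tollip (0.036), Rubcn to Wdr45 (0.037), Becn1 to Ambra1 (0.038), Map1lc3b to Atg4d (0.045) and Tfeb to Tbk1 (0.032). Atg5 was nearest to Nrbf2 (0.042), Atg7 to Tax1bp1 (0.047) and Gabarap to Rab7 (0.063). Optn had no close neighbour, with Atg9a nearest at 0.231. The most distant gene was Rubcnl for 8 of the 10 and Gabarapl1 for Atg5 and Tfeb. With 4 libraries that also differ in their content of other cells, these distances only describe these libraries.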

How the data were processed

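Raw read counts by gene symbol, in whole numbers, were deposited separately for each library. The submitters' processing notes name HISAT2, SAMtools, featureCounts (Subread), FastQC, DESeq2 1.30.0 and the build mm10. The counting settings, including strand and multi-mapping reads, are not given in the sources used here. Per the labels' protocols, libraries were rRNA-depleted and stranded. Broken lines without a count, 11 per library, were left out.

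Counts were tested with edgeR 4.0.16 in R 4.3.3: filterByExpr (minimum count 10, minimum total 15), TMM scaling and a quasi-likelihood F-test without covariates, two-sided, with Benjamini-Hochberg adjustment over 21439 genes at 0.05. The SE is the size of the log2 fold change divided by the square root of F, and 95% intervals use the test's degrees of freedom. The biological coefficient of variation was 44.5%. Counting error was small at these depths, and reads carry no molecular identifiers. In simulated data in which every gene had the common biological coefficient of variation of 44.5%, the procedure recovered most large changes but no small ones. Those small changes were larger than the log2 fold change of any of the 10 genes. The fitted SEs of the 10 genes differed, from 0.26 (Becn1) to 0.52 (Optn), and a common spread does not reproduce them. Whether the recovery holds for these genes was not tested. The 95% interval of each of the 10 genes spans changes in both directions. The lack of calls among them therefore does not show that their levels were equal. Near-identical transcripts were searched with BLAST 2.17.0 (at least 95% over 100 bases). Map1lc3b also shared stretches of at most 193 bases with 116 other genes.

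The genes, the lists of 82 autophagy genes and of cell markers, and the rule for naming genes were chosen with earlier results of these data known. The rule named the 10 genes, the ATG8 family, and per role group the other gene with the smallest p in each direction at a mean of 5 CPM or more. Atg3, the pairs of genes in ratios and the E-box were chosen after values were seen. Alternatives were DESeq2 1.42.0, its size factors, other filters (none, or a mean of 1 CPM), a replicate block, scaling to homeostatic microglia markers, a neuron and astrocyte covariate, and leaving out each library. Symbols, coordinates and promoter windows are from RefSeq for GRCm38.p6.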

Additional observations from a re-analysis of the deposited data

How the results depend on the processing

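No autophagy gene among the 10 was called under any of the 11 alternatives. The count over all genes, 0 in the reported fit, was 90 with DESeq2, 8 with the composition covariate (all lower in AD/KO) and 0 to 524 with 1 library left out. It was 48 without AD replicate 1 and 524 without AD replicate 2.

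Nothing in the labels ties equal replicate numbers to a common litter or batch. Across 21439 genes, the deviations from the group mean correlated at 0.68 between libraries of equal number. In each group replicate 2 also had the higher average neuron and astrocyte marker level (5.31 and 6.72 in AD, 6.66 and 8.08 in AD/KO). The part of this level in the correlation was not tested. A fit with a replicate block leaves 1 residual degree of freedom, as the covariate does. With the block 4333 of 21439 genes (20.2%) were called, 0 of the 10 (smallest adjusted p 0.083 by edgeR quasi-likelihood, Ulk1), and 8 of the 82 autophagy genes (Atg2a, Atg9a, Calcoco1, Gabarapl1 and Map1lc3a higher, Lamp2, Mitf and Rubcnl lower).

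The median of the 10 genes (0.14) was 0.99 with scaling to the homeostatic list, where the median of all genes was 0.70, and 0.018 with the covariate. It ran from −0.0042 (without AD replicate 1) to 0.30 (without AD/KO replicate 1). It was 0.25 without AD replicate 2 and 0.033 without AD/KO replicate 2. The median of the 82 genes (−0.00) was 0.75 and 0.050 under that scaling and covariate.

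Of 110 values for single genes, 93 kept their direction and 17 reversed it. Under homeostatic scaling these were Atg5 (0.15), Atg7 (0.49), Gabarap (0.76) and Tfeb (0.31), and with the covariate Becn1 (−0.013), Optn (−0.71) and Tfeb (0.23). Gabarap, near 0, also reversed with DESeq2 (0.045), its size factors (0.045) and the replicate block (0.0030). With 1 library left out, values ran from −0.014 to 0.22 for Becn1, −0.13 to 0.19 for Gabarap, −0.32 to 0.86 for Optn and −0.67 to 0.036 for Tfeb. The cause of these moves was not tested.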
